A study of Mus musculus with 29 samples.

Results

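Some acyl-CoA thioesterases and uncoupling proteins, and angiopoietin-like 4, are encoded by genes that muscle switches on when fatty acids arrive in larger amounts. The 9 genes described here are Acot1, Acot2, Acot7, Acot9, Acot11, Acot13, Ucp2, Ucp3 and Angptl4. They were picked by symbol from the 48023 genes of the count table, under the heading of genes induced by fatty acids. Not all of them rose with fasting. The large rise of Acot1 with fasting was known when they were picked. Their changes with fasting are therefore a description, given with no test. All 9 passed the filter on low counts in both mouse lines, but Acot1 did so only through the fasted groups.

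RNA was sequenced from tibialis anterior (TA) muscle of 29 male mice aged 2 to 3 months, 1 library a mouse. In the p110α line exon 1 of Pik3ca was floxed, and in the p110β line exon 2 of Pik3cb, which are the genes of 2 catalytic subunits of PI3K. Knockouts (M-p110αKO and M-p110βKO) also carried a Cre driven by the human skeletal actin promoter, which is active in muscle fibres, so the other cells of the muscle kept the gene. Controls carried the floxed alleles without Cre. Mice were randomly fed or fasted for a day. The p110α line gave 4 fed controls, 4 fed M-p110αKO, 4 fasted controls and 3 fasted M-p110αKO. Each feeding state of the p110β line held 3 controls and 4 M-p110βKO. The C57BL/6 background was less pure in the p110β line, so line and genetic background cannot be told apart.

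An acyl-CoA thioesterase splits a fatty acyl-CoA into the free fatty acid and coenzyme A, and the isoforms differ in the compartment and the chain length they serve. Uncoupling proteins of the inner mitochondrial membrane carry ions or metabolites, and Ucp3 is the form typical of skeletal muscle. Angptl4 is a secreted inhibitor of lipoprotein lipase, the enzyme that frees fatty acids from circulating triglyceride. Many of these genes are known targets of the PPAR receptors, which bind fatty acids.

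Assigned reads per library ranged from 5351935 to 11653239. Levels are given as CPM, the counts of a gene scaled to a common library total with TMM factors. The muscle marker genes Acta1, Ckm, Myh1, Myh2, Myh4, Ttn, Tnnt3, Actn3, Pvalb and Mb together took 122216 to 170460 CPM in every library. Libraries 23 and 24, which are 2 of the 3 fasted controls of the p110β line, stood apart. In them 7 adipocyte markers (Adipoq, Plin1, Cidec, Lep, Cfd, Retn and Lipe) summed to 208.4 and 199.0 CPM, against 17.4 to 43.7 CPM in the other 27 libraries. Library 25, the remaining mouse of that group, had 41.7 CPM, but its 7 slow-fibre markers summed to 242.9 CPM, against at most 144.9 CPM elsewhere. For many results that use fasted controls of the p110β line, values without libraries 23 and 24 are also given. That leaves 1 library in that group. Among the results given only with all libraries are the Acot1 share of Acot2 counts and the means of Acot7, Acot9 and Acot13. The level of Angptl2, the fasting counts of related genes and the ranking of genes by likeness are others. In whole muscle, fewer cells of a type and less RNA per cell cannot be told apart. The counts were summed over all exons, and they do not show the deletion. Pik3ca averaged 126.6 ± 19.7 CPM (SD, n = 4) in fed controls of the p110α line and 136.0 ± 23.4 CPM (n = 4) in fed M-p110αKO, and Pik3cb averaged 10.3 CPM in fed controls of the p110β line and 10.2 CPM in fed M-p110βKO.

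Acot1 and Acot2 lie side by side on chromosome 12 and Ucp2 and Ucp3 on chromosome 7. Their promoters, the 250 bases before the start site in RefSeq on GRCm38.p6, are shown because these pairs carry the largest fasting differences and the difference between the lines. Capitals mark matches to CCAAT (a box bound by NF-Y), to GGGCGG (a box bound by Sp1), to TATAAA (the box near some start sites), to GTAAACA (the letters bound by FoxO proteins) or to 2 copies of AGGNCA spaced by 1 base (a direct repeat of the kind PPAR receptors bind), on either strand.
Acot1, chr12:84009252-84009501, plus strand: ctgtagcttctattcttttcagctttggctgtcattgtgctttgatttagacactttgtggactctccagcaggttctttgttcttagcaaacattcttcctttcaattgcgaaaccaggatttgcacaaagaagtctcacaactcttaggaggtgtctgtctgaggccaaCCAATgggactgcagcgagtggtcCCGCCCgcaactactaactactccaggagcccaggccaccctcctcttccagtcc
Acot2, chr12:83987611-83987860, plus strand: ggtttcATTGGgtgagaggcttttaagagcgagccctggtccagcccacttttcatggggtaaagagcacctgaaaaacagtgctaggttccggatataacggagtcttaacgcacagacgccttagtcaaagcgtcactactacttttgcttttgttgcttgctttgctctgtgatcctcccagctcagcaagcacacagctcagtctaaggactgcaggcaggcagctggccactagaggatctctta
Ucp3, chr7:100472741-100472990, plus strand: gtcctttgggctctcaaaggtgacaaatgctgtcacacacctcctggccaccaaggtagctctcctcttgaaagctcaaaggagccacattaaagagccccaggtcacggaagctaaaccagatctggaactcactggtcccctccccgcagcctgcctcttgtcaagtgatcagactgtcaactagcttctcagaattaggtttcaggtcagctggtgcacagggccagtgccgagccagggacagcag
Ucp2, chr7:100493108-100493357, plus strand: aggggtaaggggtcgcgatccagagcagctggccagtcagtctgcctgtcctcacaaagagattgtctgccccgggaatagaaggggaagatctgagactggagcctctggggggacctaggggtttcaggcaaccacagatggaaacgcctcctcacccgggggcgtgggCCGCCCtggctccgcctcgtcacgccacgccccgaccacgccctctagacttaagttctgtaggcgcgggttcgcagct
The Acot1 promoter held CCAAT and, on the minus strand, GGGCGG. The Acot2 promoter held CCAAT on the minus strand, 244 bases before the start site. The Ucp2 promoter held GGGCGG on the minus strand, and the Ucp3 promoter held none of these letters. CCAAT was found in 33.8% of 32851 promoters of that length, GGGCGG in 32.7%, TATAAA in 12.4%, GTAAACA in 3.17% and the direct repeat in 0.338%. Of the 7 members with a RefSeq promoter, which leaves out Acot13 and Angptl4, Acot9 held TATAAA and none held the last 2.

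The transcripts of Acot1 and Acot2 are far more alike than their promoters. The transcripts matched over 1330 bases at 94.3% identity, with a longest identical run of 273 bases, whereas the longest local match between the promoters spanned 9 bases. Transcripts of Ucp2 and Ucp3 matched over 919 bases at 75.3% identity, with a longest run of 24 bases, and their promoters were not aligned. Of all 50-base windows in the exons of Acot1, 19.2% also occur in another gene, mostly Acot2, and for Acot2 the share was 27.7%. How reads that fit both were counted is not given in the sources used here, so the counts of this pair are less certain than those of Acot7, Acot13, Ucp3 and Angptl4, which share no such window. Windows of Acot9 were shared with Acot10 (15.2%) and those of Acot11 with the overlapping gene Fam151a (17.3%), which had 0 counts in every library.

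**Figure D1:**
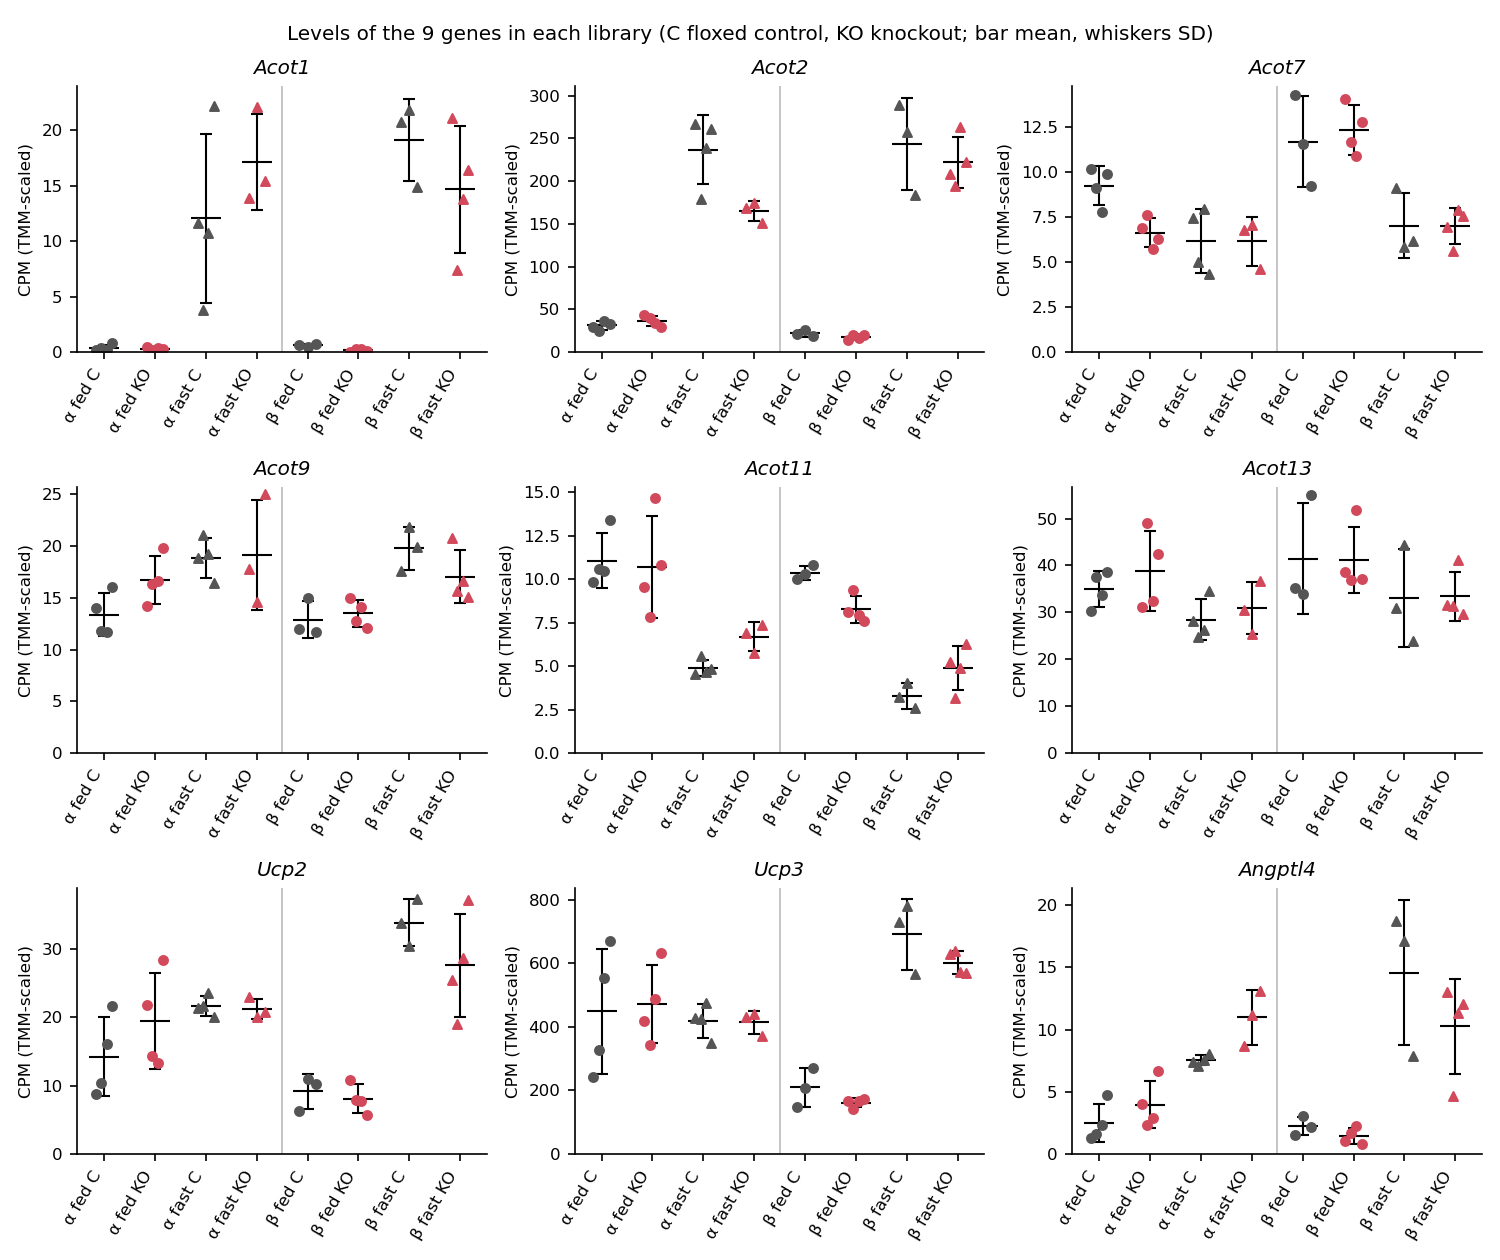
Level of each of the 9 genes in each of the 29 libraries, in CPM, with 1 panel per gene and 1 column of points per group. Horizontal lines give the mean and whiskers the SD, with circles for fed and triangles for fasted mice. The fasted points of Acot1 and Acot2 lie above all fed points, whereas Ucp3 separates by state in the p110β line alone.

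Per kilobase of exon, Ucp3 was the most abundant member over all 29 libraries, at 135.9 CPM per kb, followed by Acot2 (54.5), Acot13 (47.4), Acot9 (7.19), Acot7 (3.91), Ucp2 (2.75), Acot1 (1.94), Angptl4 (1.82) and Acot11 (1.26). The order depended on the feeding state. In fed controls of the p110α line Acot1 was last, at 0.101 ± 0.0704 CPM per kb (SD, n = 4), and Acot2 was behind Acot13, at 14.2 ± 2.36 against 47.0 ± 5.17. In the fasted controls of that line Acot2 reached 107.8 ± 18.3 CPM per kb, ahead of Acot13 (38.2 ± 5.84), and Acot1 reached 3.08 ± 1.93, within the spread of Ucp2 (3.10 ± 0.200) and Acot7 (2.91 ± 0.838).

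Acot1 encodes the cytosolic long-chain acyl-CoA thioesterase (ENSMUSG00000072949, chr12:84009490-84018371, plus strand, GRCm38). In the fed p110α line it was nearly silent, with 0.216, 0.380, 0.195 and 0.789 CPM in controls and 0.502, 0.186, 0.337 and 0.267 CPM in M-p110αKO, which came from 15 and 12 reads in all. After fasting it stood at 11.6, 3.79, 10.7 and 22.2 CPM in controls and 13.9, 22.1 and 15.4 CPM in M-p110αKO. No fasted library overlapped a fed one. In the p110β line the fed controls had 0.602, 0.505 and 0.719 CPM and the fed M-p110βKO 0, 0.284, 0.269 and 0.136 CPM, from 14 and 5 reads. The fasted controls had 20.7, 21.8 and 14.9 CPM and the fasted M-p110βKO 21.1, 7.36, 13.8 and 16.4 CPM. The fitted log2 difference between fasted and fed mice was 4.73 ± 0.562 (SE) for p110α controls and 5.72 ± 0.586 for their knockouts, against 4.93 ± 0.407 and 6.23 ± 0.454 in the p110β line. The value of p110β controls was 4.57 without libraries 23 and 24. Read from the top, these were positions 1 and 4 among 12433 genes and positions 7 and 3 among 12249. The fed levels behind them rest on few reads, so the size of the fold is imprecise.

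Acot2 encodes the mitochondrial long-chain form (ENSMUSG00000021226, chr12:83987861-83993873, plus strand). Fed controls of the p110α line had 29.7, 24.8, 37.0 and 33.3 CPM and fed M-p110αKO 43.3, 39.9, 34.2 and 30.0 CPM. Fasted controls had 267.3, 179.2, 238.8 and 261.4 CPM and fasted M-p110αKO 169.2, 174.3 and 151.3 CPM. All fasted libraries were above all fed ones, and within the fasted state each M-p110αKO lay below each control. Fed mice of the p110β line had 21.1, 25.8 and 18.7 CPM as controls and 13.8, 20.6, 16.9 and 19.8 CPM as M-p110βKO. Their fasted counterparts had 289.0, 257.0 and 183.8 CPM and 208.3, 194.0, 263.8 and 221.9 CPM. Here the genotypes overlapped in both states. Fasted levels were 7.58-fold the fed level in controls and 4.49-fold in knockouts of the p110α line, and 11.3-fold and 12.4-fold in those of the p110β line. Without libraries 23 and 24 the log2 difference in controls of the p110β line was 3.09 in place of 3.49, with 1 library left in the fasted group.

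The share of Acot1 counts relative to Acot2 counts also differed by state. In the p110α line its median was 1.13% in fed and 4.41% in fasted controls, against 0.939% and 10.2% in M-p110αKO. The p110β line gave medians of 2.86% and 8.11% for controls and 1.03% and 6.31% for M-p110βKO.

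Ucp3 (ENSMUSG00000032942, chr7:100472990-100486432, plus strand) behaved differently in the lines. Fed controls of the p110α line had 240.9, 328.8, 554.0 and 669.3 CPM and fed M-p110αKO 419.7, 344.3, 488.1 and 632.4 CPM, and the fasted mice fell inside that range, with 427.9, 423.1, 476.3 and 348.4 CPM in controls and 429.8, 439.5 and 372.7 CPM in M-p110αKO. Fed controls of the p110β line had 149.2, 208.1 and 272.0 CPM and fed M-p110βKO 166.0, 141.1, 168.3 and 172.9 CPM. After fasting these were 728.8, 779.4 and 565.1 CPM in controls and 627.6, 639.2, 571.8 and 568.8 CPM in M-p110βKO, so that fasted and fed libraries were far apart. The log2 difference between fasted and fed mice was -0.10 ± 0.265 in controls and -0.18 ± 0.287 in knockouts of the p110α line, against 1.73 ± 0.167 and 1.89 ± 0.145 in the p110β line. Leaving out libraries 23 and 24 gave 1.45 in controls of the p110β line.

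Ucp2, the widely expressed relative of Ucp3 (ENSMUSG00000033685, chr7:100493337-100502020, plus strand), showed a like pattern at a lower level. In the p110α line it had 8.85, 10.4, 16.1 and 21.6 CPM in fed controls, 21.8, 14.4, 13.3 and 28.4 CPM in fed M-p110αKO, 21.4, 21.6, 23.5 and 20.1 CPM in fasted controls and 22.9, 20.1 and 20.7 CPM in fasted M-p110αKO. The fed libraries spread widely and reached the fasted ones in both genotypes. Levels in the p110β line were 6.27, 11.0 and 10.2 CPM in fed controls, 10.9, 7.97, 7.79 and 5.70 CPM in fed M-p110βKO, 33.8, 30.4 and 37.3 CPM when controls were fasted and 25.4, 19.0, 28.7 and 37.2 CPM among fasted M-p110βKO, with no overlap between the states. The log2 differences with fasting were 0.59 ± 0.257 and 0.13 ± 0.273 in controls and knockouts of the p110α line, and 1.91 ± 0.245 and 1.77 ± 0.218 in those of the p110β line. The 1.91 became 2.06 when libraries 23 and 24 were left out. The exons of Ucp2 overlap those of Dnajb13, which had at most 0.768 CPM in any library.

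Angptl4 (ENSMUSG00000002289, chr17:33773750-33781830, minus strand) was higher in every fasted group than in its fed counterpart. Its fed levels in the p110α line were 1.29, 1.65, 2.33 and 4.74 CPM in controls and 4.02, 2.33, 2.92 and 6.67 CPM in M-p110αKO, and its fasted levels 7.44, 7.11, 7.56 and 8.08 CPM and 8.66, 11.2 and 13.1 CPM. Each fasted M-p110αKO was above each fasted control. Fed mice of the p110β line had 1.57, 3.03 and 2.16 CPM as controls and 1.07, 1.71, 2.28 and 0.815 CPM as M-p110βKO, and fasted ones 18.7, 17.1 and 7.89 CPM and 13.0, 4.66, 11.3 and 12.1 CPM. The fasted controls at 18.7 and 17.1 CPM were libraries 23 and 24, the pair with high adipocyte markers, and the part of these markers in the level was not tested. The log2 difference with fasting was 1.53 ± 0.343 in controls and 1.44 ± 0.337 in knockouts of the p110α line, and 2.74 ± 0.434 and 2.77 ± 0.418 in those of the p110β line. In controls of the p110β line it was 1.85 when those libraries were left out.

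Acot11, a thioesterase with a lipid-binding START domain (ENSMUSG00000034853, chr4:106744555-106804998, minus strand), went the other way. It had 9.82, 10.6, 10.5 and 13.4 CPM in fed and 4.55, 5.60, 4.64 and 4.83 CPM in fasted p110α controls, and 9.54, 7.83, 14.7 and 10.8 CPM in fed and 6.93, 5.78 and 7.37 CPM in fasted M-p110αKO. In the p110β line it had 10.0, 10.3 and 10.8 CPM in fed and 3.24, 4.06 and 2.58 CPM in fasted controls, and 8.12, 9.39, 7.93 and 7.61 CPM in fed and 5.23, 3.19, 4.88 and 6.30 CPM in fasted M-p110βKO. The fasted libraries were below the fed ones in all 4 pairs of groups. The log2 differences were -1.18 ± 0.189 and -0.68 ± 0.204 in the p110α line and -1.63 ± 0.227 and -0.77 ± 0.194 in the p110β line, further from 0 in controls than in knockouts each time. The -1.63 in p110β controls was -1.98 when libraries 23 and 24 were left out.

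Acot7, Acot9 and Acot13 differed less with fasting than Acot1 and Acot2. In the p110β line the log2 difference of Acot7 was -0.72 ± 0.208 in controls and -0.82 ± 0.182 in knockouts. That is near the -0.77 ± 0.194 of Acot11 in the same knockouts. Acot7, the cytosolic form abundant in brain (ENSMUSG00000028937, chr4:152178134-152271855, plus strand), had means of 9.26 ± 1.10 CPM (SD, n = 4) in fed and 6.19 ± 1.78 CPM (n = 4) in fasted p110α controls, against 6.65 ± 0.819 and 6.17 ± 1.36 CPM for M-p110αKO. In the p110β line the means were 11.7 ± 2.56 and 7.03 ± 1.80 CPM in controls and 12.4 ± 1.39 and 7.02 ± 0.995 CPM in M-p110βKO, and fed and fasted libraries did not overlap in that line. Acot9, a mitochondrial form (ENSMUSG00000025287, chrX:155262443-155297654, plus strand), had group means of 12.9 to 16.7 CPM in fed and 17.1 to 19.8 CPM in fasted mice. Acot13, a small mitochondrial form (ENSMUSG00000006717, chr13:24817948-24831540, minus strand), had group means of 35.0 to 41.5 CPM in fed and 28.4 to 33.4 CPM in fasted mice, and the states overlapped in all 4 pairs of groups.

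**Figure D2:**
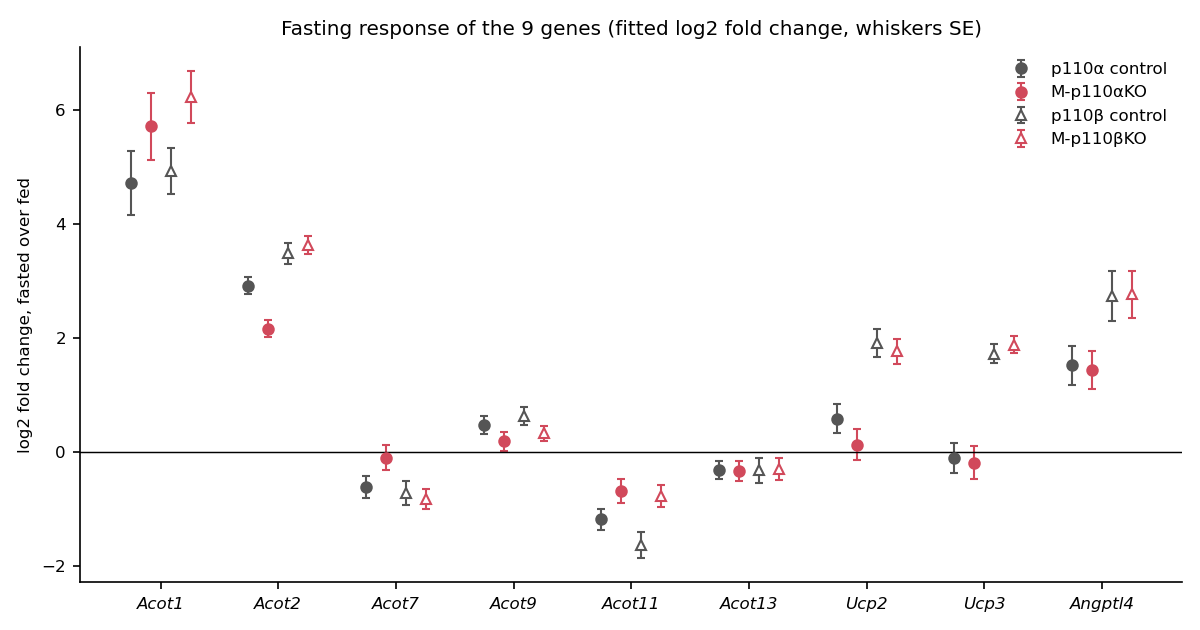
Log2 difference between fasted and fed mice for each of the 9 genes in controls and knockouts of both lines, with bars of 1 SE. Acot1 is highest in all 4, from 4.73 to 6.23, Acot11 lies below 0 in all 4, and Ucp2 and Ucp3 are near 0 in M-p110αKO and above 1.7 in both genotypes of the p110β line.

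Counted over the 9 members, fasted libraries lay wholly above fed ones for 4 genes in controls of the p110α line (Acot1, Acot2, Acot9 and Angptl4), 3 in M-p110αKO (Acot1, Acot2 and Angptl4) and 6 in each genotype of the p110β line (the first 4 with Ucp2 and Ucp3). They lay wholly below for Acot11 in each genotype of the p110α line, and for Acot7 and Acot11 in each genotype of the p110β line. Over all genes tested, 16.3%, 14.5%, 20.4% and 17.4% lay wholly above and 14.2%, 13.6%, 21.1% and 16.6% wholly below, in the order p110α controls, M-p110αKO, p110β controls and M-p110βKO. Nothing is read from the difference, since the members were picked with fasting rises known. Without libraries 23 and 24 the counts in controls of the p110β line were 6 above and 3 below. With only 1 fasted library left, groups lie apart more readily, and the shares over all genes were then 34.5% above and 37.7% below.

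The genotypes were compared within each state with edgeR's quasi-likelihood test, with p values adjusted by the Benjamini-Hochberg method over all genes tested and a threshold of 0.05. Among the 9 members, Acot2 in fasted mice of the p110α line was the only call. It was lower in M-p110αKO, with 164.9 ± 12.1 CPM (SD, n = 3) against 236.7 ± 40.3 CPM (n = 4), a log2 difference of -0.51 ± 0.148 and an edgeR adjusted p of 0.0435. In that comparison 6.63% of all genes tested were called, and 3.57% of all genes tested were called lower. The call lay near the threshold: its adjusted p was 0.0555 with upper-quartile factors, 0.0511 with limma-voom and 0.0531 to 0.115 when libraries 1, 9, 11, 12, 13, 14 or 15 were left out. When the reads of Acot1 and Acot2 were added together, an alternative chosen after the data were seen, the log2 difference was -0.44 with an adjusted p of 0.0856. The interaction of genotype and fasting for Acot2 was -0.75 ± 0.207, with an edgeR adjusted p of 0.101, where 0.434% of genes were called, so a smaller fasting response in M-p110αKO did not pass that test, while DESeq2 gave -0.75 with an adjusted p of 0.0358.

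Angptl4 and Acot11 were higher in each fasted M-p110αKO than in each fasted control, and neither passed. The log2 difference was 0.54 ± 0.323 for Angptl4 (edgeR adjusted p = 0.343) and 0.45 ± 0.213 for Acot11 (edgeR adjusted p = 0.218). Groups in this comparison lay wholly apart for 9.2% of all genes tested with knockouts above and for 11.6% with knockouts below. In the fed p110α line Acot7 was lower in each M-p110αKO (6.90, 7.64, 5.73 and 6.31 CPM) than in each control (10.2, 9.11, 7.78 and 9.91 CPM), with a log2 difference of -0.49 ± 0.193 and an edgeR adjusted p of 0.308. Of all genes, 3.89% lay wholly apart in that direction and 0.603% were called. Ucp3 was close between genotypes in the p110α line, at 0.07 ± 0.265 in fed and -0.01 ± 0.286 in fasted mice on the log2 scale.

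Loss of p110β gave no call among the members in fed or fasted mice. In fed mice no gene was called by edgeR in the main fit (0.0% of 12249), although 1037 genes had an unadjusted p under 0.05. Limma-voom called 0 and DESeq2 30, and edgeR called some genes with no filter or when only the groups compared were fitted. Acot1 and Acot11 were lower in each fed M-p110βKO than in each fed control, as were 4.84% of all genes. For Acot11 the log2 difference was -0.32 ± 0.191 (edgeR adjusted p = 0.676). For Acot1, from the 5 and 14 reads above, it was -1.71 ± 0.847. Acot1 passed the filter only through the fasted groups, so nothing is read from its fed difference. Ucp3 was at -0.36 ± 0.152 in fed M-p110βKO (edgeR adjusted p = 0.513). In fasted mice, where 0.694% of genes were called, Acot11 was at 0.55 ± 0.232 (edgeR adjusted p = 0.320) and Acot2 at -0.13 ± 0.151. These values moved with the libraries. When libraries 23 and 24 were left out, Acot11 was at 0.90 (edgeR adjusted p = 0.594). Acot2 turned from -0.13 to 0.27 (edgeR adjusted p = 0.825) and Angptl4 from -0.53 to 0.37 (edgeR adjusted p = 0.903).

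The genotype effects of the lines were also compared with each other. None of the 9 was called over both states, where 5.6% of genes were called in the p110α line and 0.269% in the p110β line, or for the interaction in the p110β line, where 0.098% were. Nor was any called between the lines in the fed state, where the share was 0.133%, or in the fasted state, where it was 4.75%. In the fasted state the difference for Angptl4 was 1.05 ± 0.496 on the log2 scale (edgeR adjusted p = 0.215) with all libraries, and 0.17 (edgeR adjusted p = 0.946) when libraries 23 and 24 were left out. For Acot2 it was -0.39 ± 0.225 (edgeR adjusted p = 0.325) and -0.78 (edgeR adjusted p = 0.224).

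**Figure D3:**
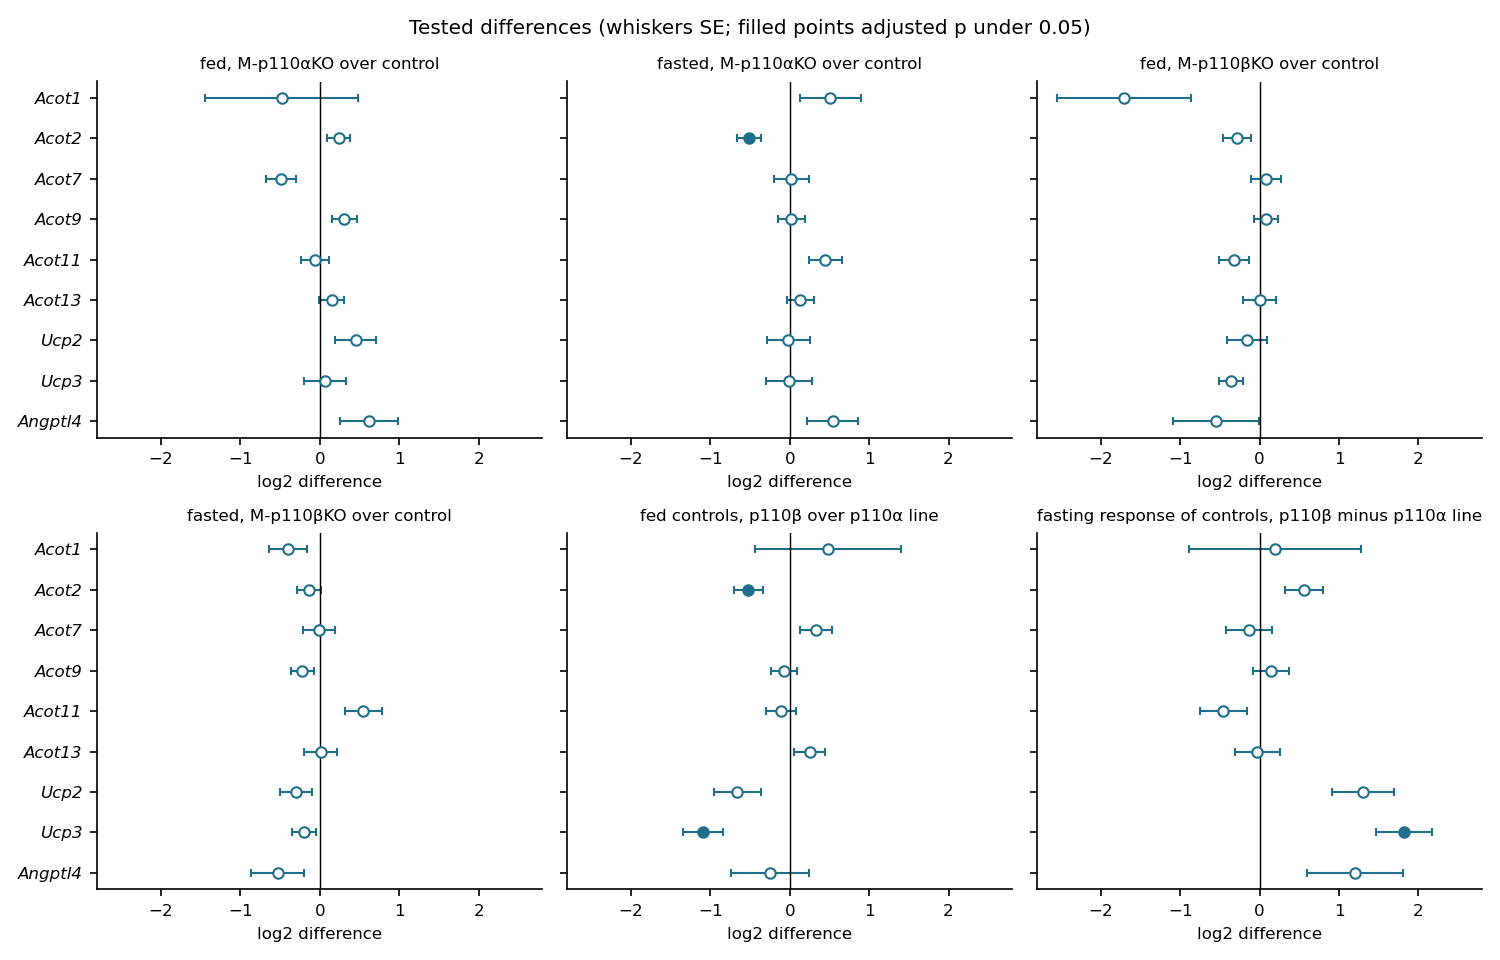
Log2 differences with bars of 1 SE for the 9 genes in 6 tested comparisons, with filled points for an edgeR adjusted p under 0.05. Filled points are Acot2 in fasted M-p110αKO against controls (-0.51), Acot2 (-0.52) and Ucp3 (-1.09) between fed controls of the lines, and Ucp3 (1.82) for the fasting response of controls between the lines.

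The lines themselves differed in Ucp3. In fed controls it was lower in the p110β line, at 209.8 ± 61.5 CPM (SD, n = 3) against 448.2 ± 198 CPM (n = 4), a log2 difference of -1.09 ± 0.254 with an edgeR adjusted p of 0.00386, although the 2 groups overlapped. Acot2 was lower too, at 21.9 ± 3.6 CPM against 31.2 ± 5.19 CPM, a log2 difference of -0.52 ± 0.178 with an edgeR adjusted p of 0.0393. Of all genes tested, 20.1% were called in this comparison, and 10.9% of all genes tested were called lower in the p110β line. The call of Ucp3 held in every alternative, while that of Acot2 was lost with upper-quartile factors (0.0550), limma-voom (0.0535) and the summed reads of the pair (0.0517), and when library 1, 3, 4, 16 or 18 was left out.

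The fasting response of Ucp3 in controls was larger in the p110β line by 1.82 ± 0.351 on the log2 scale, with an edgeR adjusted p of 0.0109, where 1.35% of all genes tested were called and 0.768% of all genes tested were called larger. Without libraries 23 and 24 the difference was 1.55 and its edgeR adjusted p 0.155, with 1 fasted control left in the p110β line. The responses of Ucp2 (1.30 ± 0.395, edgeR adjusted p = 0.0885) and Angptl4 (1.20 ± 0.602, edgeR adjusted p = 0.309) did not pass, and without the 2 libraries these were 1.46 (edgeR adjusted p = 0.254) and 0.33 (edgeR adjusted p = 0.909).

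The same question can be put to the knockouts, whose libraries include neither 23 nor 24. This comparison was added after the data were seen. In fed mice M-p110βKO had lower levels than M-p110αKO of Ucp3 (-1.54 ± 0.234, edgeR adjusted p = 3.72e-05), Acot2 (-1.04 ± 0.165, 2.92e-05), Ucp2 (-1.28 ± 0.271, 0.00104) and Angptl4 (-1.43 ± 0.456, 0.0189), and a higher level of Acot7 (0.89 ± 0.186, 0.000648). Of all genes, 30.7% were called. The fasting response was larger in M-p110βKO for Ucp3 (2.08 ± 0.342, edgeR adjusted p = 0.000515), Acot2 (1.47 ± 0.231, 0.000159) and Ucp2 (1.65 ± 0.382, 0.00723), in a comparison that called 10.4% of all genes, and it was not called for Angptl4 (1.33 ± 0.584, 0.145). Here the lost gene differs as well as the line, and these cannot be told apart.

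In fed mice of the p110α line, levels of Ucp2 and Angptl4 went together from mouse to mouse. Over the 8 fed libraries, controls and M-p110αKO pooled, Pearson's r of the log2 levels was 0.96 (exact permutation p = 0.000471, 0.00565 adjusted over 12 relations) and Spearman's rho 0.90 (exact permutation p = 0.00456, adjusted 0.0435). Libraries were permuted across both genotypes, so a difference between the genotypes also enters r and p. Both means were higher in fed M-p110αKO than in fed controls (Ucp2 19.5 against 14.2 CPM, Angptl4 3.98 against 2.50 CPM). Without libraries 1 and 8, the farthest from the median of Ucp2, r was 0.91. Ucp3 and Angptl4 gave r = 0.84 (exact permutation p = 0.0100, adjusted 0.0577) and rho = 0.88 (exact permutation p = 0.00724, adjusted 0.0435), and r = 0.71 without libraries 1 and 4. The highest Ucp2 and Angptl4 of each genotype were in libraries 4 and 8. These also had the highest summed fibroblast markers of their groups, at 410.0 and 653.9 CPM against 219.1 to 382.0 CPM in the other 6. The 7 adipocyte markers listed above were highest there too, summing to 27.8 and 34.1 CPM against 17.8 to 27.1 CPM. Adipoq alone was not, at 0.702 and 1.16 CPM against 1.29 CPM in library 1 and 1.58 CPM in library 6. The part of either set of markers in the relation was not tested. Without libraries 4 and 8 r of Ucp2 and Angptl4 was 0.93. Libraries 4 and 8 also differed from the rest of their groups over the whole table. Chi-square per gene, which also grows with read depth, was 22.8 to 31.0 for pairs with either of them. Other pairs within the fed p110α groups had 8.76 to 15.6. The relation of Ucp2 and Angptl4 did not pass elsewhere, with r of -0.47 over 7 fasted mice of the p110α line, 0.51 over 7 fed and 0.56 over 7 fasted mice of the p110β line (exact permutation, adjusted p = 0.369 in each), and whether it differs between these sets was not tested.

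**Figure D4:**
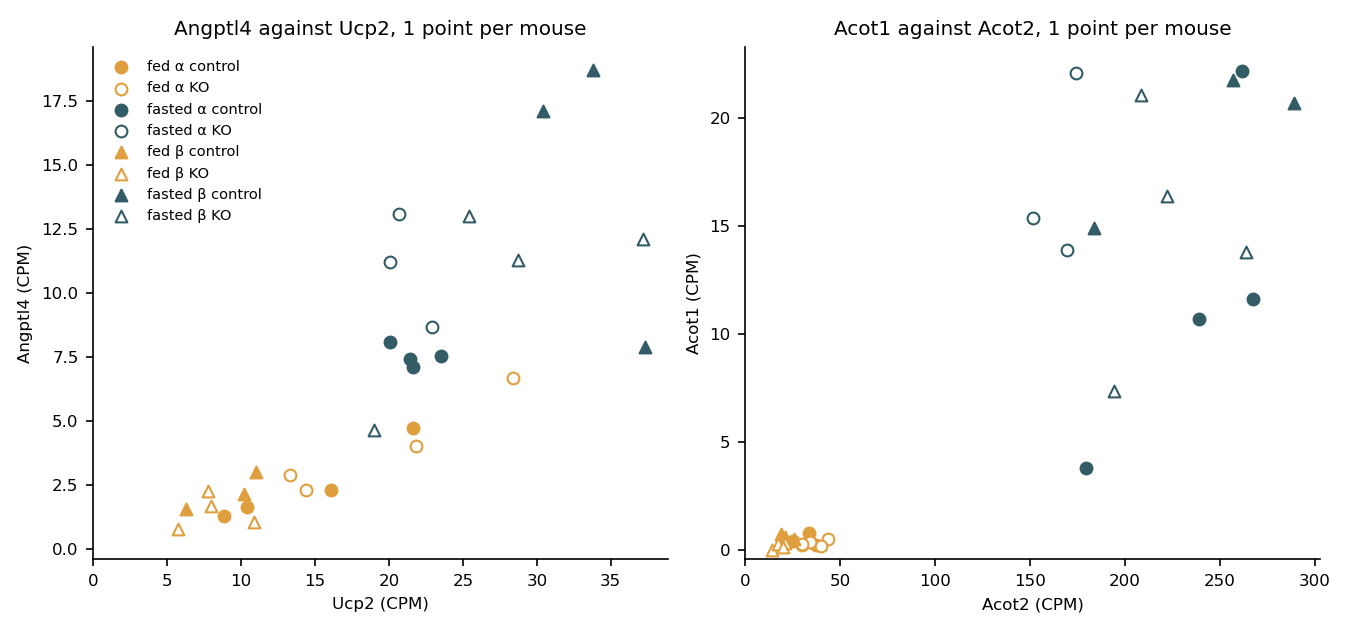
Level of Angptl4 against Ucp2 and of Acot1 against Acot2, in CPM on linear axes, with 1 point per mouse. Circles are the p110α line and triangles the p110β line, open for knockouts. Fed p110α mice run along a rising line for Ucp2 and Angptl4 (r = 0.96), and fed and fasted mice form separate clouds for Acot1 and Acot2.

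Genes of the same pathway were taken from lists of general knowledge, chosen like the members with earlier results of these data known. Their counts and p values are therefore a description and not an independent test. Of 33 genes that fatty acids induce through PPAR receptors, 30 were tested. With fasting, 15 rose and 0 fell in controls of the p110α line, 16 rose and 1 fell in M-p110αKO, 21 rose and 0 fell in controls of the p110β line, and 26 rose and 0 fell in M-p110βKO. Over all genes, 29.9%, 21.4%, 26.9% and 38.0% were called. The median log2 difference of the list was 0.37, 0.40, 0.74 and 0.89, against 0.0, 0.0, -0.02 and -0.02 over all genes. Without libraries 23 and 24, 17 of 31 rose in controls of the p110β line. Pdk4, the kinase that switches off pyruvate dehydrogenase, rose from 1894 ± 809 to 6516 ± 856 CPM (SD, n = 4 each) in p110α controls and from 739.5 ± 315 to 5636 ± 517 CPM (n = 3 each) in p110β controls, with edgeR adjusted p of 0.000428 and 1.97e-06. The log2 difference of Pdk4 in p110β controls was 2.94 with all libraries and 3.06 (edgeR adjusted p = 0.000141) when libraries 23 and 24 were left out. Plin4, a lipid droplet coat protein, rose in the p110β line (2.06 ± 0.315 on the log2 scale in controls, edgeR adjusted p = 0.000497) and was at 0.24 ± 0.298 in controls of the p110α line. That difference between the lines was 1.81 ± 0.457 (edgeR adjusted p = 0.0491). Leaving out the same libraries gave 2.17 in p110β controls (edgeR adjusted p = 0.00955) and 1.94 between the lines (edgeR adjusted p = 0.183). All 8 genes known to rise in fasted muscle, such as the ubiquitin ligases Trim63 and Fbxo32, rose in each genotype of the p110β line. In each genotype of the p110α line 4 of 8 rose. The list shares Pdk4 with the fatty acid targets. The 8 of 8 in p110β controls held without the 2 libraries. Of 11 genes around lipoprotein lipase, a list that shares Lpl with the fatty acid targets, 6 were tested. Of these, 1 rose in each of the first 3 groups and 2 in M-p110βKO, and 0 fell. In p110β controls 2 of 7 rose without the 2 libraries. Lpl, the lipase that Angptl4 inhibits, rose in controls (1.11 ± 0.313, edgeR adjusted p = 0.0202) and M-p110βKO (1.89 ± 0.277, 0.000209) of the p110β line, and its values in the p110α line were 0.38 ± 0.201 and 0.26 ± 0.216. The call of Lpl in p110β controls was lost when libraries 23 and 24 were left out (0.70, edgeR adjusted p = 0.311).

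**Figure D5:**
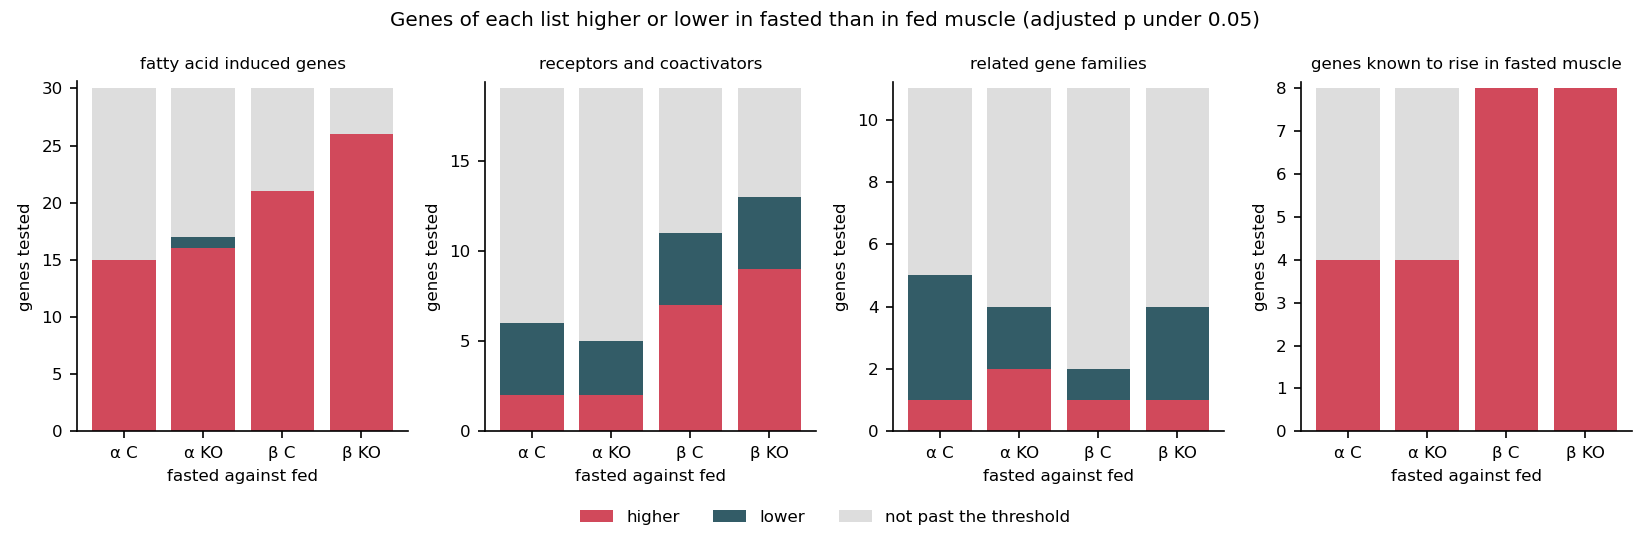
Number of genes of 4 pathway lists called higher, called lower or not passed with fasting in controls and knockouts of both lines. Of the 30 tested targets of fatty acids, 15, 16, 21 and 26 were higher and at most 1 was lower.

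In fed controls 12 of the 30 fatty acid targets were lower in the p110β line and 0 higher, in a comparison where 20.1% of all genes tested were called and 10.9% of all genes tested were called lower. These included Pdk4 (-1.36 ± 0.300, edgeR adjusted p = 0.00293) and Acsl1, an enzyme that activates fatty acids to acyl-CoA (-0.76 ± 0.160, 0.00134). Of 19 tested regulators of fatty acid and fasting responses, 7 were lower and 0 higher, beside the same 10.9% of all genes. Among them were the receptor Ppara (-1.75 ± 0.364, edgeR adjusted p = 0.00157), the nuclear receptor Esrrg (-0.94 ± 0.146, 6.36e-05) and the coactivator Ppargc1a (-0.54 ± 0.164, 0.0191). The fasting response of Ppargc1a was larger in the p110β line (1.07 ± 0.228, edgeR adjusted p = 0.0152), and was 0.59 (edgeR adjusted p = 0.387) when libraries 23 and 24 were left out. In that setting the 12 and the 7 stayed at 12 and 7, and no regulator or fatty acid target was called for the fasting response between the lines.

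In fasted M-p110αKO 2 of the 30 fatty acid targets were higher, the triglyceride lipase Pnpla2 (0.60 ± 0.152, edgeR adjusted p = 0.0243) and the thiolase Acaa2 (0.45 ± 0.115, 0.0247), and 0 were lower, where 6.63% of all genes were called. In fed M-p110αKO, fed M-p110βKO and fasted M-p110βKO 0 of 30 were called, where the shares of all genes called were 0.603%, 0.0% and 0.694%. Of the 21 other thioesterases, uncoupling proteins and angiopoietin-like genes 11 were tested. With fasting, 1 rose and 4 fell in controls of the p110α line, and 2 rose and 2 fell in M-p110αKO. In the p110β line 1 rose and 1 fell in controls, and 1 rose and 3 fell in M-p110βKO. Over all genes, 29.9%, 21.4%, 26.9% and 38.0% were called with fasting in these groups. Angptl2, a secreted relative of Angptl4, was higher in fasted M-p110αKO, at 22.0 ± 9.11 CPM (SD, n = 3) against 12.4 ± 2.74 CPM (n = 4), a log2 difference of 0.84 ± 0.241 with an edgeR adjusted p of 0.0462. Its levels in fed controls were 54.7 ± 4.85 CPM in the p110α line and 49.1 ± 10.5 CPM in the p110β line, against 12.4 CPM in the fasted controls of both. Acot8, the peroxisomal thioesterase, was higher in fed controls of the p110β line, at 5.27 ± 1.60 against 2.67 ± 0.941 CPM (0.91 on the log2 scale, edgeR adjusted p = 0.0134), as was Angptl1 (1.39, 0.0248).

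Genes most like each member were ranked by Pearson's r over the 8 group means of log2 CPM, among 10857 genes tested in both lines. The means share libraries and depth, so r is a description. For Acot2 they were Lpin1 (0.994), Retreg1 (0.993) and Ranbp9 (0.992), and for Acot1 Tmem50a (0.995), Elmod3 (0.992) and Tmco6 (0.992). For Ucp3 they were Abra (0.989), Cebpb (0.985) and Adamtsl4 (0.983), and for Ucp2 Ankrd2 (0.989), Csrp3 (0.985) and Ugp2 (0.982). For Angptl4 they were Acss1 (0.986), Pim3 (0.980) and Nrap (0.979), for Acot11 Agpat5 (0.983), AI464131 (0.976) and Aplnr (0.974), and for Acot7 Tmem205 (0.979). Acot9 was nearest to Spidr (0.978) and Acot13 to Endog (0.989).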

How the data were processed

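Libraries were made by the authors from mRNA (NEBNext kit). Reads were aligned by STAR to the GRCm38 genome, and featureCounts (Subread) summed them over exons. The sources used here state no tool versions, strand setting or treatment of reads with several matches. What was deposited is a table of raw counts for 48023 genes in 29 libraries. Gene symbols and positions came from GENCODE M21.

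Each line was fitted on its own in edgeR 4.0.16 (R 4.3.3) with 1 coefficient per group, TMM factors and filterByExpr (min.count 10, min.total.count 15), which left 12433 genes in the p110α line and 12249 in the p110β line. Comparisons between lines used all libraries and 12760 genes. The test was edgeR's quasi-likelihood F test, with Benjamini-Hochberg adjustment over all genes tested. Each SE was worked back from that test, as the size of the log2 difference divided by the square root of F. It is therefore approximate, and least certain for very small differences or few reads. Only the comparison of genotypes in fasted p110α mice was also run on simulated counts with known changes. The other comparisons were not simulated, and nothing is concluded here from that run. Among 39 pairs of libraries of the same group no repeated library was found (chi-square per gene of 3.92 or more). Nothing in the labels shows separate litters, so p values measure the spread between these mice. The members, gene lists and tests were chosen with earlier results of these data known. Named genes were all 9 members and every relative called in a comparison of genotypes or lines. Relatives called with fasting were counted and not named. Further named genes were up to 4 of each other list by lowest p (by largest difference with fasting), and the 3 genes most like each member. Alternatives were other factors (DESeq2 size factors, upper quartile), no filter or 1 CPM in 3 libraries, DESeq2 1.42.0, limma-voom (limma 3.58.1), a GC content and length correction, removal of mitochondrially encoded and the 20 most abundant genes, fits limited to the groups compared, and each library left out.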

Additional observations from a re-analysis of the deposited data

Results flagged for a closer look

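Acot13 in fed M-p110βKO had 1 library far from the others, library 21, at 51.8 CPM against 37.0 to 38.7 CPM in the other 3. It was the only such library in 45 groups of members tested, and chance flags about 1 group in 20. The fasting response of Ucp3 in controls differed between the lines by 1.82 on the log2 scale, as tested by the interaction of line and fasting (edgeR adjusted p = 0.0109, and 0.155 without libraries 23 and 24).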

How the results depend on the processing

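No paired analysis was possible because the library numbers of the labels run from 1 to 29 and no number occurs in more than 1 group. No value of a member changed sign where it was called. For genotype in fasted p110α mice 1 member was called, and 0 with upper-quartile factors, limma-voom or the Acot1 and Acot2 reads summed, and 0 to 1 with 1 library left out. Over both states of the p110α line 0 were called, 1 with no filter (Angptl4), and 0 to 1 with 1 library left out (Angptl4 at 0.89, adjusted p = 0.0171, without library 4). For the interaction in that line 0 were called, and 1 with no filter or DESeq2 (Acot2). Between fed controls of the lines 2 were called, 1 with upper-quartile factors, limma-voom or summed reads, 5 when knockouts replaced controls, and 1 to 2 with 1 library left out. Without library 1, Acot2 was lost (0.0521) and Ucp2 gained (-0.84, 0.0477). For the fasting response of controls between the lines 1 was called, 3 with no filter, 2 with DESeq2 (Ucp2 1.33, 0.0239), 3 with knockouts in place of controls, 0 without libraries 23 and 24, and 1 to 2 with 1 library left out. For the fasted genotype effect between the lines 0 were called, and 2 with no filter (Acot1 0.89, Angptl4 1.04). The summed reads, the removal of libraries 23 and 24 and the use of knockouts were chosen after the data were seen. Why these counts moved was not tested.

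Fasting differences moved by more than the spread of replicates for Angptl4 in p110α controls without library 4 (2.15), for Acot7 (-0.54) and Ucp3 (2.05) in M-p110βKO under the GC correction, and in p110β controls without libraries 23 and 24 for Acot1 (4.57), Acot2 (3.09), Acot11 (-1.98), Acot13 (-0.79) and Angptl4 (1.85). Over the members, the median shift of a log2 difference under another scaling was at most 0.07 in size in any comparison.

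Counts of called genes over the whole table moved by over 1.5 times as follows. With no filter, 75 calls for genotype in fed p110α mice became 324, 696 over both states 1090, 54 for the interaction 350, and in the p110β line 0 fed became 128, 85 fasted 419, 33 over both states 315 and 12 for the interaction 203. The 172 for the fasting response between lines became 714 and the 17 for the fed genotype effect between lines 287. DESeq2 gave 197, 236 for the p110α interaction, 30, 173, 91, 40, 364 and 75 for the same comparisons, with no such change over both states of the p110α line. The GC correction gave 336 in place of 824 in fasted p110α mice, 4 for the interaction and 175 in place of 606 for the fasted effect between lines. Limma-voom gave 53 in fasted p110β mice and 0 for their interaction. Fits of the groups compared gave 45 in fed and 15 in fasted p110β mice. Without libraries 23 and 24 the counts were 31 in fasted p110β mice, 11 over both states, 2079 in place of 3293 for fasting in p110β controls, 34 for the fasting response between lines and 29 for the fasted effect between lines. With knockouts in place of controls, 2563 became 3923 and 172 became 1323. Upper-quartile factors turned the split of higher and lower calls in fasted p110α mice from 380 and 444 to 484 and 341, in fasting p110β controls from 1765 and 1528 to 1449 and 1993, and between lines from 6 and 11 to 11 and 12 (fed) and from 265 and 341 to 315 and 260 (fasted).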
